A study of Homo sapiens with 6 samples.

Results

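Kinesins are motor proteins that use ATP to walk along microtubules or to take them apart at their ends. The family was taken as every gene whose symbol is KIF followed by a digit, with names that hold a hyphen left out, although no such name occurred. This gave 39 of the 17452 genes in the table. Of these, 38 are motors, and KIF1BP, now named KIFBP, is a kinesin-binding protein that carries the prefix without being a motor. By their textbook roles, 12 were placed among the mitotic motors, 13 among the transport motors and 13 among the remaining kinesins. The mitotic KIF2B was not analysed here.

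RNA was measured by sequencing in MDA-MB-231, an established human cell line from a triple-negative breast tumour. The 3 siControl libraries came from cells given a control siRNA, and the 3 siPHF20L1 libraries from cells given siRNA against PHF20L1, a nuclear protein with Tudor domains that binds methylated lysines. All cells were grown in L-15 medium, and either of 2 lipid reagents was used for transfection, with no statement of which one served which library. Sources used here gave neither siRNA sequences nor the time of harvest. Whether libraries of a group are separate cultures is not said, so p-values measure only the spread between these libraries, which may be technical.

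Mitotic kinesins slide, crosslink and shorten the microtubules of the spindle, move chromosomes along it and build the midzone at which the cell divides. In cycling cells many of their genes are read out late in the cycle, under the DREAM and MuvB complexes, which bind a promoter word called CHR, often near a CCAAT box, the word of the factor NF-Y. Transport kinesins serve the cell between divisions too: kinesin-1 (the KIF5 motors with their light chains) and the kinesin-3 motors move organelles and vesicles outward, and kinesin-2 (KIF3 motors and KIF17) also works in cilia.

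Values are deposited FPKM, fragment numbers scaled by transcript length and library size. The FPKM of a library summed to between 395250.9 and 416138.4, and steps in the low values put its depth near 17100000 to 17500000 fragments, where 1 fragment in 1 kb is worth 0.0571 to 0.0585 FPKM. PHF20L1 (Entrez 51105) lay at 15.75, 12.48 and 12.73 FPKM in siControl libraries 1 to 3 and at 2.67, 2.31 and 2.74 FPKM in siPHF20L1 libraries 1 to 3, so every library followed its label. The libraries numbered 1 stood apart from the others in both groups. For this reason, class medians and the largest differences are also given from library 1 of each group, where no test can be made, and from libraries 2 and 3. VIM, a marker of this line, was at 1624 ± 17.4 and 1015 ± 7.89 FPKM (SD, n = 3) in siControl and siPHF20L1, and ESR1, the estrogen receptor gene that the line is known to lack, was listed at 0 in all 6 libraries. Against the listed profile, the receptor gene ERBB2 was present at 25.9 ± 0.0755 and 30.8 ± 1.08 FPKM, and the epithelial EPCAM at 2.20 ± 0.161 and 4.31 ± 0.796 FPKM (SD, n = 3).

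Across the family the differences went both ways, and how often they passed the test was close to what all genes showed. Differences are given as siPHF20L1 minus siControl on the log2(FPKM + 1) scale, which understates changes of low genes, and were tested with limma across all 11560 genes with at least 1 FPKM in at least 3 libraries. A gene passed if its Benjamini-Hochberg adjusted p was under 0.05. Of the 39 members, 27 entered the test, of which 6 were higher in siPHF20L1, 10 were lower and 11 did not pass. That is 59.3% called, against 58.6% of all genes tested. In 21 of the 27, the 3 libraries of one group all lay above the 3 of the other. The share over all genes tested was smaller, at 63.7%. The family's median difference was -0.10, against 0.05 over all genes tested, where 90% of genes lay between -0.68 and 0.88. By class, none of the 11 tested mitotic motors was higher and 5 of the 10 tested transport motors were, or 4 without KIF17, against 34% of all genes tested.

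**Figure D1:**
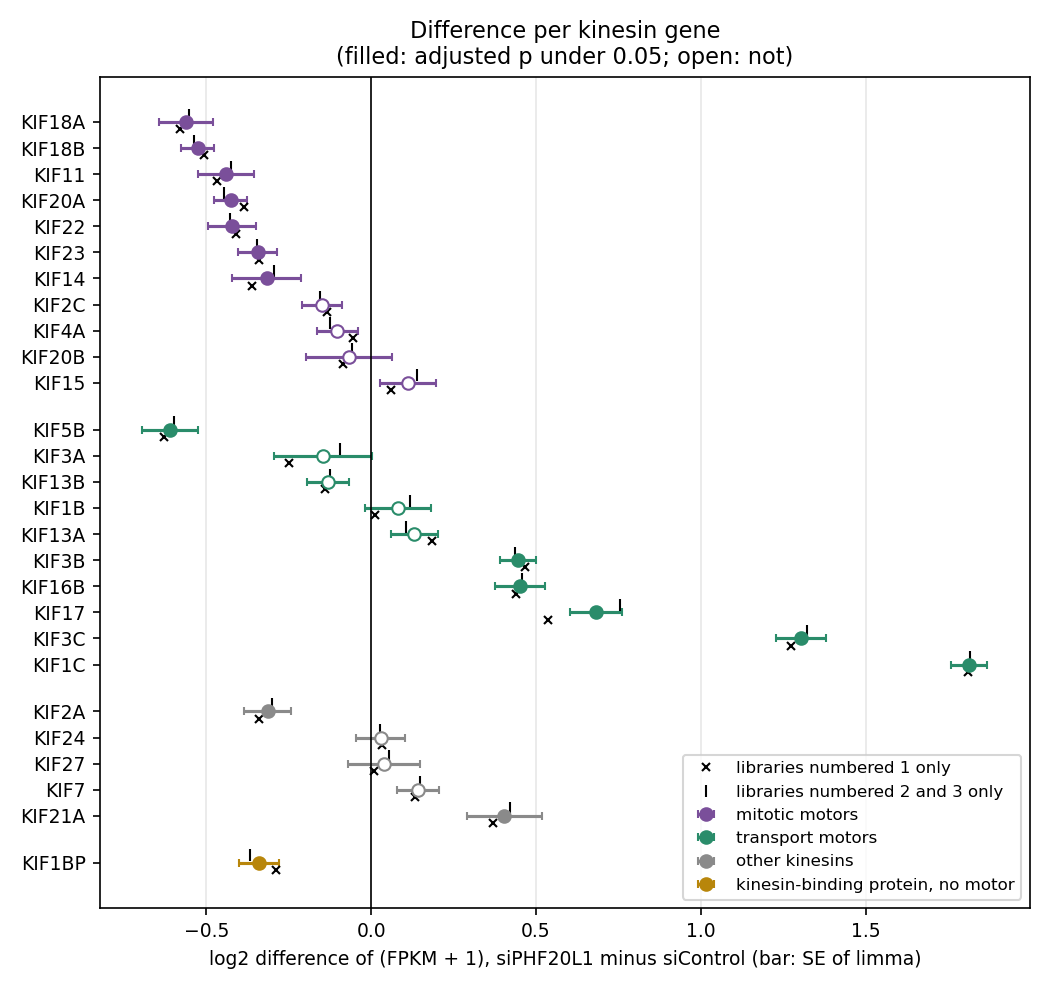
Log2 difference (siPHF20L1 minus siControl, on log2(FPKM + 1)) with its standard error for the 27 tested members, by class, n = 3 libraries per group. Filled points have an adjusted p under 0.05, crosses give the libraries numbered 1 and ticks those numbered 2 and 3. All 7 filled mitotic motors lie below 0, and 5 of the 6 filled transport motors lie above it, KIF5B being the exception. KIF17, among these 5, entered the test only through its siPHF20L1 libraries.

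Mitotic motors were lower or not past the threshold. Of the 11 tested, 7 fell (63.6%, against 24.7% of all genes tested), none rose (against 34% of all genes tested) and 4 did not pass. The 7 that fell were KIF11, KIF14, KIF18A, KIF18B, KIF20A, KIF22 and KIF23, and they kept between 65.5% and 78.5% of their siControl level, so no fall reached 2-fold. The median of the 11 was -0.34, with -0.36 from library 1 of each group and -0.35 from libraries 2 and 3. Quantile normalization and median-ratio size factors each gave 9 lower and none higher. In bulk RNA, fewer cells in mitosis and less of these transcripts per cell cannot be told apart. A list of 15 proliferation markers includes neither kinesins nor their partners. Of these, 6 fell (40%, against 24.7% of all genes tested), 3 rose (20%, against 34%) and 6 did not pass. Their median was -0.08, against 0.05 over all genes tested. Their summed level was 948.64 to 963.25 FPKM in siControl and 850.16 to 861.4 FPKM in siPHF20L1 libraries, so it was lower in all 3 siPHF20L1 libraries. Most of this came from TOP2A, the mitotic topoisomerase, which fell most, from 100.7 to 45.2 FPKM, and MCM2, a subunit of the replicative helicase, rose most, with a log2 difference of 0.25. The antigen Ki-67 gene MKI67 kept 87% (log2 difference -0.20, limma, adjusted p = 0.0390). The part of cell number in the fall of the motors was not tested.

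Before the values, the promoters show what these genes share. Stretches of 120 bases that end just before the annotated start are printed, 5′ to 3′ in the direction of transcription, for 5 mitotic motors that fell and for the 3 transport motors with the largest differences among those above 1 FPKM in every library. Capitals mark CHR words and CCAAT boxes on either strand, a box of the other strand reading ATTGG. Searched as CHR were the word TTTGAA, its variant with CG at the centre (TTCGAA) and its variant with TA at the centre (TTTAAA), of which the last 2 read the same on both strands. They come from RefSeq on GRCh38.p14, at chr5:138178992-138179111 (+, KIF20A), chr15:69414229-69414348 (+, KIF23), chr16:29790631-29790750 (+, KIF22), chr11:28108157-28108276 (-, KIF18A), chr10:92593010-92593129 (+, KIF11), chr10:32056426-32056545 (-, KIF5B), chr17:4997830-4997949 (+, KIF1C) and chr2:25982498-25982617 (-, KIF3C).
KIF20A: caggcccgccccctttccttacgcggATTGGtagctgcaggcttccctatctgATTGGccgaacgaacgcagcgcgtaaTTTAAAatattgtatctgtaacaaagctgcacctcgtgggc
KIF23: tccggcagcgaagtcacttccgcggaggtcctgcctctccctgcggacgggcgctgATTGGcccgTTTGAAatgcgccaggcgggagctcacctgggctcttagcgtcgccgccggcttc
KIF22: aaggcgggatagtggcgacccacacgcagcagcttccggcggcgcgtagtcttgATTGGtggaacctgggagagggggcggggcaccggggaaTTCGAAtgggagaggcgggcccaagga
KIF18A: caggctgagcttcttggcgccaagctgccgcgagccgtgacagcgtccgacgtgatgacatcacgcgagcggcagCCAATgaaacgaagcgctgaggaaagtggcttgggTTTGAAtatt
KIF11: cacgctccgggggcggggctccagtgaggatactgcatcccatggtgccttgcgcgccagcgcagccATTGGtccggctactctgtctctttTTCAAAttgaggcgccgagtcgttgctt
KIF5B: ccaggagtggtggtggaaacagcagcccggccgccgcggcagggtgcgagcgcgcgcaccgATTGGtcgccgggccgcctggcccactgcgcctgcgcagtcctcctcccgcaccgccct
KIF1C: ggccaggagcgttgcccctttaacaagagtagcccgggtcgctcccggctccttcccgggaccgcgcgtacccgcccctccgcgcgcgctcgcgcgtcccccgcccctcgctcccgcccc
KIF3C: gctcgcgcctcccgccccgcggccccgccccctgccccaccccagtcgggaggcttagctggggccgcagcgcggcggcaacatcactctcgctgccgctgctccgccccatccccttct
Each of the 5 mitotic stretches holds a CHR word with a CCAAT box upstream of it. The KIF5B stretch holds a CCAAT box alone, and those of KIF1C and KIF3C hold neither. KIF14 and KIF18B, which also fell, were not printed. In the same 120 bases they hold CCAAT boxes but no CHR word, like KIF5B. Their CHR words lie at -198 and 1 (KIF14) and at 2 (KIF18B) from the start. The contrast with KIF5B within these stretches thus holds for the printed motors only. In the full window of 250 bases before to 50 after the start, a CHR word was found in 12 of 12 mitotic, 2 of 11 transport and 1 of 9 remaining motors with a promoter in the RefSeq table. Over all 27305 promoters of the table, 25.3% held one, and over the 9543 that belong to genes tested here, 16.4% did. The 2 transport motors with a CHR word were KIF5B, which fell, and KIF16B, which rose. CCAAT boxes lay in 10 of 12 mitotic promoters, those of KIF2C and KIF15 being without, and in 3 of 11 transport promoters, against 35.7% of all. Both words together lay in 83.3% of the mitotic promoters, 9.1% of the transport promoters and 9.9% of all promoters. From the CCAAT box to the nearest CHR word, counted start to start, the 10 mitotic promoters had a median of 25.5 bases, and 8 of them had 20 to 40. KIF4B, a near-identical copy of KIF4A, is counted beside it in these mitotic counts, and both had 24 bases. The spacing was not computed over all promoters.

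Within the mitotic class the CHR word did not follow the test, since it was in 7 of 7 promoters of motors that fell and in 4 of 4 of those that did not pass. CCAAT boxes were in 7 of 7 and 2 of 4. Words of the E2F factors (TTCCCGC, the second word TTTGGCG and the third word TTTCGCG, either strand) were in 2 of 12 mitotic and 4 of 11 transport promoters, against 9.4% of all and 15.5% of those of genes tested. The words were chosen with the values known, overlaps between them were allowed, and a match describes letters, not binding.

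**Figure D2:**
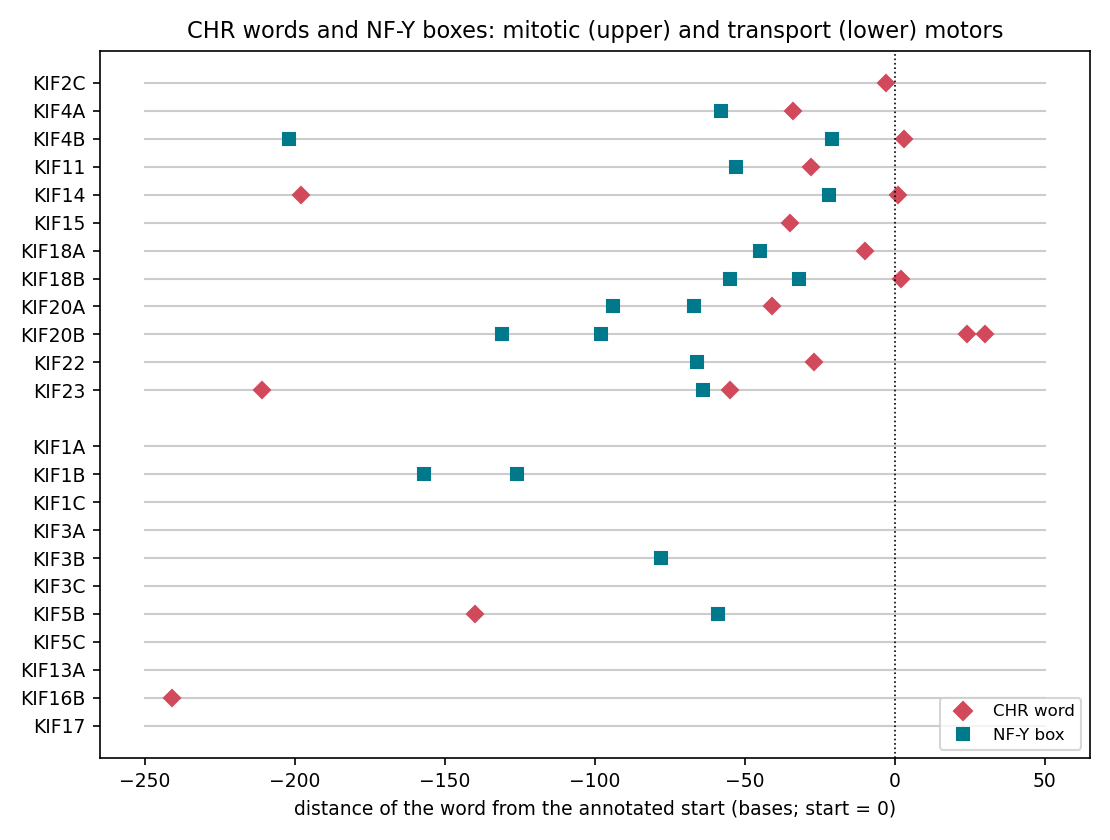
Position of each CHR word (diamonds) and each CCAAT box, the NF-Y word (squares), in bases from the annotated start at 0, for mitotic motors (upper rows) and transport motors (lower rows) with a promoter in the RefSeq table. All 12 mitotic rows carry a CHR word, in contrast to 2 of the 11 transport rows.

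Bipolar spindles depend on KIF11 (Eg5), which slides antiparallel microtubules apart, with KIF15 as a partner that can hold the spindle open. KIF11 (Entrez 3832) lay at 36.94, 31.54 and 31.04 FPKM in siControl libraries 1 to 3 and at 26.43, 22.75 and 23.35 FPKM in siPHF20L1 libraries 1 to 3. No siPHF20L1 library reached the lowest siControl value, and library 1 was the highest of each group. The mean fell from 33.2 ± 3.27 to 24.2 ± 1.97 FPKM (SD, n = 3; log2 difference -0.44, SE 0.09, limma, adjusted p = 0.00226). KIF15 (Entrez 56992) went from 9.88 ± 0.968 to 10.7 ± 0.714 FPKM (SD, n = 3) with overlapping groups, and its log2 difference of 0.11 did not pass (limma, adjusted p = 0.279). Libraries 2 and 3 alone put KIF15 past the threshold, as higher (limma, adjusted p = 0.0496). The ratio of KIF11 to KIF15 was 3.36, 3.36 and 3.36 in siControl libraries 1 to 3 and 2.30, 2.26 and 2.19 in siPHF20L1 libraries 1 to 3. In siControl, this ratio did not share the offset of library 1 that both genes showed on their own. In siPHF20L1, the ratio of library 1 was again the highest.

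Motors that act on microtubule ends and chromosome alignment include KIF18A, which damps chromosome movement, KIF18B, which shortens astral microtubules, and KIF2C (MCAK), a depolymerase that moves on no track. KIF18A (Entrez 81930) had 16.05, 13.70 and 14.50 FPKM in siControl and 10.41, 8.85 and 9.74 FPKM in siPHF20L1 libraries 1 to 3. Its mean fell from 14.8 ± 1.195 to 9.67 ± 0.783 FPKM (SD, n = 3; log2 difference -0.56, SE 0.08, limma, adjusted p = 0.000495), which left 65.5% and was the lowest difference of the mitotic class. KIF18B (Entrez 146909) had 50.29, 51.36 and 52.57 FPKM in siControl and 35.09, 35.79 and 35.26 FPKM in siPHF20L1 libraries 1 to 3. Both groups were narrow and far apart, with a log2 difference of -0.53 (SE 0.05, limma, adjusted p = 4.14e-05). The 2 paralogs thus kept their proportion, with a mean KIF18B to KIF18A ratio of 3.50 in siControl and 3.68 in siPHF20L1 libraries and overlapping ranges. KIF2C (Entrez 11004) had 44.85, 48.74 and 48.79 FPKM in siControl and 40.77, 43.55 and 43.77 FPKM in siPHF20L1 libraries 1 to 3. The groups did not overlap, yet the log2 difference of -0.15 missed the threshold (limma, adjusted p = 0.0587). A fit with the replicate block put KIF2C past it (limma, adjusted p = 0.00163), and over 15 alternatives its adjusted p ranged from 0.00163 to 0.256.

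Chromokinesins bind chromosome arms and push them toward the spindle equator. KIF22 (Kid, Entrez 3835) had 82.62, 91.89 and 94.72 FPKM in siControl and 61.89, 69.91 and 68.30 FPKM in siPHF20L1 libraries 1 to 3. It was the highest mitotic motor in every library, and its library 1 was the lowest of each group, unlike most members. The mean fell from 89.7 ± 6.33 to 66.7 ± 4.24 FPKM (SD, n = 3; log2 difference -0.42, SE 0.07, limma, adjusted p = 0.00111). KIF4A (Entrez 24137), which also shapes the anaphase midzone, went from 10.3 ± 0.0458 to 9.50 ± 0.345 FPKM (SD, n = 3) and did not pass (log2 difference -0.10, limma, adjusted p = 0.183). It passed with median-ratio size factors (adjusted p = 0.0440) and with quantile normalization (adjusted p = 0.0286). KIF4B, its near-identical copy, was listed at 0.1 FPKM or less in every library, and how reads were split between the copies was not given in the sources used here.

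Motors of the midzone and of cytokinesis made up the rest of the class. KIF20A (MKLP2, Entrez 10112), which brings the chromosomal passenger complex to the midzone, had 70.46, 70.50 and 70.99 FPKM in siControl and 53.75, 51.33 and 51.89 FPKM in siPHF20L1 libraries 1 to 3. The siControl libraries spanned 0.53 FPKM and the groups did not overlap, at a log2 difference of -0.43 (SE 0.05, limma, adjusted p = 0.000124). KIF23 (MKLP1, Entrez 9493), the motor of centralspindlin, had 34.97, 33.47 and 32.00 FPKM in siControl and 27.39, 25.26 and 25.80 FPKM in siPHF20L1 libraries 1 to 3 (log2 difference -0.34, SE 0.06, limma, adjusted p = 0.00126). RACGAP1, its partner in centralspindlin, fell alongside, from 50.3 ± 1.31 to 39.95 ± 0.577 FPKM (SD, n = 3; log2 difference -0.33, limma, adjusted p = 0.000693). KIF14 (Entrez 9928), a motor of abscission, had 14.33, 11.45 and 11.58 FPKM in siControl and 10.94, 8.88 and 9.52 FPKM in siPHF20L1 libraries 1 to 3. Its groups were set apart by 0.51 FPKM at their nearest, with a log2 value of -0.32 (SE 0.10, limma, adjusted p = 0.0281). KIF14 is the least settled of the 7 falls, since the call was lost in 6 of 15 alternatives. These were the fits without siControl replicate 1 (adjusted p = 0.0657), without siPHF20L1 replicate 2 (0.0954) or 3 (0.0827), with the libraries numbered 2 and 3 averaged (0.0914), with equal sums (0.0586) and with no filter (0.0549). KIF20B (Entrez 9585) overlapped between groups, at 12.2 ± 2.05 and 11.6 ± 1.79 FPKM (SD, n = 3), with a log2 difference of -0.07 (limma, adjusted p = 0.676).

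**Figure D3:**
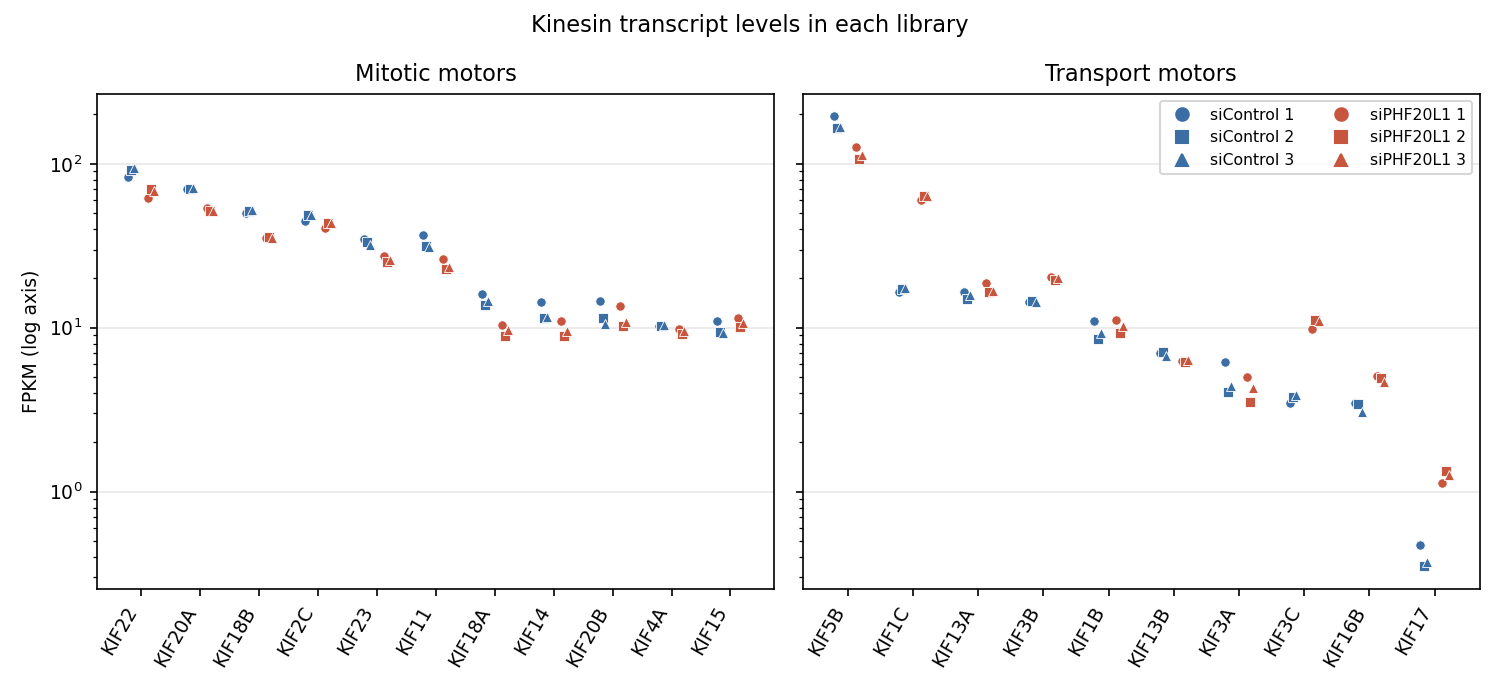
FPKM of each mitotic (left) and transport (right) motor in the 6 libraries on a log axis, siControl in blue and siPHF20L1 in red, with a circle, square and triangle for libraries 1, 2 and 3. The blue and red marks of KIF1C, at 16.52 to 17.52 and 60.44 to 63.89 FPKM, are the farthest apart among members above 1 FPKM in every library, and KIF5B is the highest member in every library.

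Transport motors rose more often than they fell, and the largest rise, that of KIF1C, was not past the threshold in its paralog KIF1B. Of the 10 tested, 5 rose (50%, against 34% of all genes tested): KIF1C, KIF3B, KIF3C, KIF16B and KIF17. KIF5B fell (10%, against 24.7%), and KIF1B, KIF3A, KIF13A and KIF13B did not pass. The median was 0.29, with 0.31 from library 1 and 0.28 from libraries 2 and 3. KIF17 entered the test only through its siPHF20L1 libraries, so it had to differ. Without it, 4 of the other 9 rose and the median was 0.13. With the replicate block, 6 were higher and 2 lower, and quantile normalization and median-ratio size factors each gave 5 higher and 2 lower. Rises of at least 2-fold on the log2 scale were found for 2 of the 27 tested members, KIF1C and KIF3C, against 3.34% of all genes tested.

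Kinesin-1 carries much of the outward cargo of cells. KIF5B (Entrez 3799), its ubiquitous heavy chain, was the highest of all 39 members, with 195.68, 165.77 and 168.40 FPKM in siControl and 126.20, 107.34 and 112.62 FPKM in siPHF20L1 libraries 1 to 3. The groups were 39.57 FPKM apart at their nearest. The mean fell from 176.6 ± 16.6 to 115.4 ± 9.73 FPKM (SD, n = 3), which left 65.3% (log2 difference -0.61, SE 0.08, limma, adjusted p = 0.000361). Library 1 of each group gave -0.63, and libraries 2 and 3 gave -0.60. KIF5A and KIF5C, the heavy chains known from neurons, did not reach the filter and stood at 0.24 FPKM or less in every library.

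Of the kinesin-1 light chains, which link the heavy chains to cargo, 3 rose (against 34% of all genes tested) and 1 did not pass. The light chains were singled out after their values were seen. KLC1 rose from 40.02 ± 1.78 to 55.0 ± 0.549 FPKM (SD, n = 3; log2 difference 0.45, limma, adjusted p = 0.000161). KLC3 and KLC4 rose by 0.64 and 0.48 on the log2 scale from lower levels, and KLC2 did not pass (59.3 ± 4.83 and 56.4 ± 2.96 FPKM, SD, n = 3, limma, adjusted p = 0.435). In the whole list of light chains and cargo adaptors, 7 of 18 tested genes rose and 3 fell, the other 8 not passing. That is 38.9% higher and 16.7% lower, near the 34% and 24.7% of all genes tested, with a median of 0.05, against 0.05 over all genes tested. PLEKHM2 (SKIP), which couples kinesin-1 to lysosomes, rose most, from 17.8 ± 1.59 to 41.6 ± 2.70 FPKM (SD, n = 3; log2 difference 1.18, limma, adjusted p = 6.6e-06). RHOT1 (Miro1), an anchor of motors on mitochondria, fell most, from 13.1 ± 1.43 to 9.97 ± 0.497 FPKM (SD, n = 3; log2 difference -0.36, limma, adjusted p = 0.00664).

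Kinesin-2 is a heterotrimer in which KIF3A pairs with KIF3B or KIF3C. KIF3A (Entrez 11127) had 6.16, 4.04 and 4.41 FPKM in siControl and 5.03, 3.50 and 4.31 FPKM in siPHF20L1 libraries 1 to 3. The groups overlapped, and the log2 difference of -0.15 (SE 0.15) did not pass (limma, adjusted p = 0.428). Both partners rose. KIF3B (Entrez 9371) had 14.39, 14.49 and 14.26 FPKM in siControl and 20.27, 19.61 and 19.97 FPKM in siPHF20L1 libraries 1 to 3 (1.39-fold, log2 difference 0.45, SE 0.05, limma, adjusted p = 0.000172). KIF3C (Entrez 3797) had 3.49, 3.76 and 3.90 FPKM in siControl and 9.85, 11.11 and 11.02 FPKM in siPHF20L1 libraries 1 to 3. That is 2.87-fold (log2 difference 1.30, SE 0.08, limma, adjusted p = 3.09e-06), and the groups were 5.95 FPKM apart at their nearest. In FPKM, which is per length, KIF3C was below KIF3A in siControl libraries, at 0.567 to 0.931 of its level, and above it in siPHF20L1 libraries, at 1.96 to 3.17 times its level. KIF3B stayed the higher partner, but its level relative to KIF3C went from 3.66 to 4.12 in siControl to 1.77 to 2.06 in siPHF20L1 libraries. KIF17 (Entrez 57576), the homodimeric kinesin-2, was low, with 0.47, 0.35 and 0.37 FPKM in siControl and 1.13, 1.33 and 1.26 FPKM in siPHF20L1 libraries 1 to 3 (3.13-fold by means, log2 difference 0.68). Library 1 of each group gave 0.54, and libraries 2 and 3 gave 0.75.

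Kinesin-3 motors carry vesicles and endosomes over long distances. KIF1C (Entrez 10749), a fast motor of vesicles and of podosome and integrin traffic, had 16.52, 17.21 and 17.52 FPKM in siControl and 60.44, 63.89 and 63.50 FPKM in siPHF20L1 libraries 1 to 3. The 2 groups spanned 1 and 3.45 FPKM and were 42.92 FPKM apart at their nearest. The mean rose from 17.1 ± 0.512 to 62.6 ± 1.89 FPKM (SD, n = 3), which is 3.67-fold (log2 difference 1.81, SE 0.05, limma, adjusted p = 2.1e-07). Only 28 of the 11560 genes tested had a higher difference, and KIF1C went from the 10th to the 3rd highest member. Its paralog KIF1B (Entrez 23095), a motor of mitochondria and synaptic vesicle precursors, did not pass, with overlapping groups at 9.62 ± 1.28 and 10.2 ± 0.895 FPKM (SD, n = 3; log2 difference 0.08, limma, adjusted p = 0.506). KIF1A, the neuronal member, did not reach the filter. KIF16B (Entrez 55614), which moves early endosomes, had 3.49, 3.41 and 3.05 FPKM in siControl and 5.09, 4.94 and 4.67 FPKM in siPHF20L1 libraries 1 to 3 (1.48-fold, log2 difference 0.45, SE 0.08, limma, adjusted p = 0.00096). The paralogs KIF13A and KIF13B had values on opposite sides of 0, and neither passed. KIF13A (Entrez 63971), a motor of recycling endosomes, was at 15.7 ± 0.776 and 17.3 ± 1.26 FPKM (SD, n = 3; log2 difference 0.13, limma, adjusted p = 0.146, and 0.0153 with the replicate block). KIF13B (Entrez 23303) was at 6.97 ± 0.203 and 6.28 ± 0.0800 FPKM (SD, n = 3; log2 difference -0.13, limma, adjusted p = 0.111, and 0.0448 with the replicate block).

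Set against each other, the median differences of mitotic and transport motors were 0.63 apart on the log2 scale (-0.34 and 0.29), a description with no test, since motors of the same libraries are not replicates. With no filter on low values the distance was 0.43. The transport median of 0.29 includes KIF17, which entered the test only through its siPHF20L1 libraries, and was 0.13 without it. A filter of 1 FPKM in all 6 libraries, which leaves KIF17 out, gave -0.48 for mitotic minus transport. In summed FPKM the mitotic class was lower, like its median, while the transport class was level, unlike its median. The tested and untested mitotic motors together gave 386.25, 383.76 and 386.34 FPKM in siControl and 301.6, 295.79 and 298.64 FPKM in siPHF20L1 libraries 1 to 3. This sum was nearly constant within each group and lower in all 3 siPHF20L1 libraries. Transport motors gave 274.78, 239.78 and 243.9 FPKM in siControl and 264.45, 244.04 and 250.77 FPKM in siPHF20L1 libraries 1 to 3, with overlapping groups and means of 252.8 ± 19.1 and 253.1 ± 10.4 FPKM (SD, n = 3).

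Beneath the level transport sum, its make-up differed between the groups. KIF5B made up 71.2%, 69.1% and 69.0% of it in siControl libraries 1 to 3 and 47.7%, 44.0% and 44.9% in siPHF20L1 libraries 1 to 3. KIF1C went from 6.79% to 24.8% on average, and the remaining 11 transport motors together from 59.1 to 75.1 FPKM. Per length, KIF5B was 9.61 to 11.8 times as high as KIF1C in siControl and 1.68 to 2.09 times as high in siPHF20L1 libraries. Without KIF5B the transport sums averaged 76.2 ± 2.62 and 137.7 ± 0.868 FPKM (SD, n = 3; siControl, then siPHF20L1), with no overlap between groups. Mitotic motors made up 56.1% ± 1.72 of all motor FPKM in siControl and 49.9% ± 0.803 in siPHF20L1 libraries (SD, n = 3). No p is given for these sums, since 3 libraries against 3 cannot reach an exact permutation p below 0.10.

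**Figure D4:**
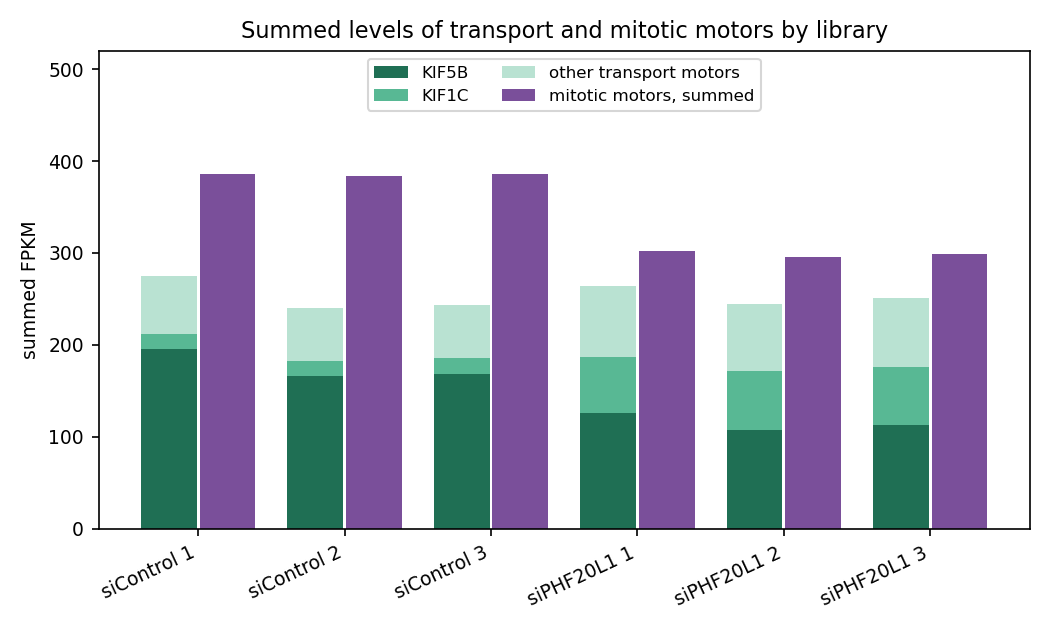
Summed FPKM per library of the transport motors, stacked as KIF5B, KIF1C and the others, beside the sum of the mitotic motors, for siControl and siPHF20L1 libraries 1 to 3. The transport stacks overlap in height between groups (239.78 to 274.78 and 244.04 to 264.45 FPKM) while KIF5B shrinks and KIF1C grows within them, and the mitotic bars are lower in all 3 siPHF20L1 libraries.

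Among the 13 remaining kinesins, 5 were tested, with a median of 0.04, against 0.05 over all genes tested. Of the 5, 1 rose (20%, against 34% of all genes tested), 1 fell (20%, against 24.7%) and 3 did not pass. KIF21A (Entrez 55605), a motor that slows microtubule growth at the cell cortex, had 5.03, 3.89 and 3.80 FPKM in siControl and 6.79, 5.39 and 5.59 FPKM in siPHF20L1 libraries 1 to 3. The groups were only 0.36 FPKM apart at their nearest (log2 difference 0.40, SE 0.11, limma, adjusted p = 0.0147). The call of KIF21A was lost without siControl replicate 2 (adjusted p = 0.0569) or 3 (0.0538) and with the libraries numbered 2 and 3 averaged (0.0673). KIF2A (Entrez 3796), a depolymerase of spindle poles and of growing neurites, had 29.85, 26.80 and 26.36 FPKM in siControl and 23.37, 20.77 and 22.04 FPKM in siPHF20L1 libraries 1 to 3 (log2 difference -0.31, SE 0.07, limma, adjusted p = 0.00496). KIF7, a ciliary motor of hedgehog signalling, was at 7.88 ± 0.188 and 8.80 ± 0.276 FPKM (SD, n = 3) and did not pass (limma, adjusted p = 0.0816, and 0.0190 with the replicate block). Its paralog KIF27 and the centriolar KIF24 overlapped between groups, with log2 differences of 0.04 and 0.03.

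KIF1BP (Entrez 26128), which binds the motor domains of several kinesins and keeps them off microtubules, had 30.75, 30.99 and 28.88 FPKM in siControl and 25.01, 23.10 and 22.88 FPKM in siPHF20L1 libraries 1 to 3. It fell without overlap (log2 difference -0.34, SE 0.06, limma, adjusted p = 0.00145).

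The 12 members that did not reach the filter were KIF4B among mitotic motors, KIF1A, KIF5A and KIF5C among transport motors, and KIF6, KIF9, KIF12, KIF19, KIF21B, KIF25, KIF26A and KIF26B among the rest. None exceeded 0.97 FPKM in any library, 8 stayed under 0.1 FPKM everywhere, and KIF12 and KIF19 were listed at 0 in all 6 libraries. KIF9, a motor known from motile cilia and podosomes, had the highest single value, with 0.55, 0.38 and 0.53 FPKM in siControl and 0.74, 0.97 and 0.84 FPKM in siPHF20L1 libraries 1 to 3. It passed in the fit without the filter (log2 difference 0.32, limma, adjusted p = 0.00868). Of its exonic bases, 16.4% overlap genes of the other strand, and whether the authors' counting used strand was not given in the sources used here. The same uncertainty holds for tested members, over 9.3% of exonic bases in KIF13B, 8.2% in KIF27, 6.3% in KIF22, 6.1% in KIF23, 4.2% in KIF2C and under 3% in 5 others.

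Of 5 kinesins named outside the KIF series, 1 was higher (20%, against 34% of all genes tested). Another 2 were lower (40%, against 24.7%) and 2 did not pass. CENPE, which walks chromosomes to the equator, fell to 57.5% of its siControl level, from 8.26 ± 1.499 to 4.75 ± 0.909 FPKM (SD, n = 3; log2 difference -0.69, limma, adjusted p = 0.00285). KIFC3, a minus-end motor of organelles and junctions, rose from 30.8 ± 3.47 to 52.1 ± 7.71 FPKM (SD, n = 3; log2 difference 0.74, limma, adjusted p = 0.000819). Adding KIF2A, CENPE and KIFC1 to the mitotic motors, a choice made after seeing the data, gave 9 lower and none higher with a median of -0.33. Of 16 partners of mitotic kinesins at the spindle and midzone, 10 fell (62.5%, against 24.7% of all genes tested), 4 rose (25%, against 34%) and 2 did not pass. ECT2, which centralspindlin recruits for cytokinesis, fell most, from 49.3 ± 4.34 to 18.7 ± 1.74 FPKM, and BIRC5, a chromosomal passenger protein gene, rose most, from 19.9 ± 1.81 to 49.1 ± 3.69 FPKM (SD, n = 3). The partners thus changed in both directions.

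The offset of the libraries numbered 1 ran through the family in the same way in both groups. Of the 27 tested members, 16 were above the mean of libraries 2 and 3 in both groups, 7 were below it in both and 4 were unlike, and the log2 ratios of the 2 groups had a Pearson r of 0.912 across members, given as a description since members share libraries. KIF3A had the highest siControl ratio (0.46) and KIF22 the lowest (-0.17). What sets these libraries apart was not given in the sources used here. From library 1 and from libraries 2 and 3, the log2 differences were 1.81 and 1.82 for KIF1C and 1.27 and 1.32 for KIF3C. Among mitotic motors they were -0.58 and -0.55 for KIF18A, -0.51 and -0.54 for KIF18B, -0.47 and -0.43 for KIF11, -0.38 and -0.45 for KIF20A, -0.41 and -0.43 for KIF22, -0.34 and -0.35 for KIF23, and -0.36 and -0.30 for KIF14. All 7 mitotic falls and the 6 calls among transport motors kept their direction within both sets of libraries. This had to be so, since the groups of each of these genes did not overlap, and it adds no support. KIF17, among the 6, also entered the test only through its siPHF20L1 libraries.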

How the data were processed

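Poly-A RNA of 6 MDA-MB-231 libraries was sequenced after a stranded library preparation, per the labels' protocols. GRCh37, TopHat2 2.1.1, Bowtie 0.12.2 and HTSeq 0.6.0 are named, without roles, in the submitters' processing notes. The deposited unit is FPKM, per the file headers. How the authors computed FPKM was not given in the sources used here. The members and lists were chosen with earlier results of these data known. Differences were tested with limma 3.58.1 (R 4.3.3) on log2(FPKM + 1) with an intensity trend and no block, for genes with FPKM of at least 1 in at least 3 of the 6 libraries. The two-sided p-values were adjusted by Benjamini-Hochberg over 11560 genes, with a threshold of 0.05. The script was tested on simulated data. Every tested member is named, as are the largest rise and fall of other lists, and RACGAP1, MKI67 and the light chains besides, chosen after their values were seen. Same-numbered libraries deviated together from their group means (correlations 0.73, 0.44 and 0.42 for the numbers 1, 2 and 3). Crossed pairs did so too, at 0.49 for siControl 3 with siPHF20L1 2 and 0.31 for siControl 2 with siPHF20L1 3. With library 1 standing apart from its group mean, libraries 2 and 3 correlate however they are matched. The values thus show the shared offset of the libraries numbered 1, and whether the numbers 2 and 3 mark pairs cannot be told. Libraries 2 and 3 were close (mean chi-square per gene 2.04 and 1.79, against 11.15 or more in pairs with number 1) and were kept separate. Immune and endothelial markers summed to 1.55 to 2.05 FPKM in siControl and 1.63 to 2.26 FPKM in siPHF20L1 libraries, with 1 of 6 tested. Alternatives changed the pseudocount, filter, scaling, block and libraries. Promoters came from RefSeq (33 of 39 members matched, first entry per gene). Exon overlaps came from GENCODE 29, with no coordinates carried between builds.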

Additional observations from a re-analysis of the deposited data

How the results depend on the processing

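For mitotic motors, leaving out each library gave 6 to 7 lower and 0 higher, and the other alternatives 6 to 9 lower. A single mitotic motor, KIF15, was higher in the libraries numbered 2 and 3 alone (1 against 0). Transport motors had 2 lower with median-ratio size factors, with quantile normalization and with the replicate block. Leaving out each library gave 5 higher and 1 lower. The 5 include KIF17, which entered the test only through its siPHF20L1 libraries and stayed in each of these fits. A filter of 1 FPKM in all 6 libraries, which leaves KIF17 out, gave 4 higher. Among the remaining kinesins, 2 were higher in the libraries numbered 2 and 3 alone, with no filter and with the replicate block, 0 with the libraries numbered 2 and 3 averaged, and 0 to 1 without each library in turn, 0 being reached without siControl replicates 2 and 3. The transport median was 0.10 with no filter, 0.21 with quantile normalization and 0.13 with the stricter filter (1 FPKM in all 6 libraries) and, as an alternative chosen after seeing the data, without KIF17. The distance from mitotic to transport median was then -0.43 with no filter and -0.48 with the stricter filter. The median of the remaining kinesins reversed to -0.015 with median-ratio size factors and to -0.054 with quantile normalization. Both scalings moved the median of all genes by under 0.1.

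Members that did not pass gave the reversals of sign: KIF24 (-0.024 and -0.072) and KIF27 (-0.015 and -0.054) with those scalings, and, over the fits without 1 library, KIF24 (-0.019 to 0.069), KIF27 (-0.046 to 0.13), KIF20B (-0.18 to 0.054) and KIF3A (-0.25 to 0.0057). In the 404 single-gene comparisons, 371 kept call and direction. The replicate block gave 8 kinesins higher and 12 lower, and changed no member's call other than by adding KIF2C, KIF7, KIF13A and KIF13B. The cause of these shifts was not tested. The lone pair of libraries numbered 1 allows no test. At these depths, members under about 0.1 FPKM rest on few fragments.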

Other observations

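Dynein is the motor that walks the opposite way along microtubules. Of 26 tested genes of dynein, dynactin and their adaptors, 10 rose, 5 fell and 11 did not pass, with a median log2 difference of 0.13. The shares of 38.5% higher and 19.2% lower were near those of all genes tested (34% and 24.7%). BICD2, an adaptor that links dynein to Golgi vesicles and to the nuclear envelope, rose from 5.92 ± 0.612 to 24.2 ± 1.12 FPKM (SD, n = 3; log2 difference 1.87, limma, adjusted p = 9.01e-07), a larger difference than that of any kinesin tested. ACTR10 (Arp11), a subunit at the pointed end of dynactin, fell from 30.9 ± 0.811 to 16.0 ± 1.78 FPKM (SD, n = 3; log2 difference -0.91, limma, adjusted p = 2.92e-05). Of 10 tested tubulin genes, 1 rose (10%, against 34% of all genes tested), 3 fell (30%, against 24.7%) and 6 did not pass. TUBA1A rose from 54.3 ± 4.09 to 86.2 ± 3.28 FPKM, and TUBB4B fell from 956.6 ± 93.8 to 626.1 ± 65.4 FPKM (SD, n = 3). Tubulin genes are near-identical in places, so their single values are uncertain.

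The words CAAGAT and TAAGGA were picked earlier on these same data as more frequent in the 3′ UTRs of genes that fell, so what follows is a description. Of the 7 mitotic motors that fell, KIF11, KIF14, KIF18A and KIF23 carry at least 1 of them in the longest annotated 3′ UTR and KIF18B, KIF20A and KIF22 carry none. That is 57.1%, against 57.5% of all lower genes and 48.5% of all genes tested with a 3′ UTR. Median 3′ UTR lengths differed, at 620 bases for these 7, 1470 for all lower genes and 1356 for all genes tested. A longer 3′ UTR has more room for a word, so these shares are not directly comparable. KIF5B, which fell most in the family, carries neither word, and KIF1C, which rose most, carries at least 1. Their 3′ UTRs are 2527 and 4250 bases long.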
